A study of Mus musculus with 8 samples.

Results

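The perforin, granzyme, killer receptor and CD8 genes examined here are the part of the transcriptome by which cytotoxic T cells and natural killer cells are usually recognised. The 10 genes were Prf1, Gzma, Gzmb, Gzmk, Nkg7, Ctsw, Klrd1, Klrk1, Cd8a and Cd8b1, out of 19933 genes measured. Each was represented by 1 probe set, found by its gene symbol in the platform annotation. They were chosen by measured values, namely earlier results of these same arrays in which they read higher in PlGF hearts than in control hearts. Their difference between PlGF and control hearts is therefore given as a description with no test.

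The study asked which transcripts change when new vessels and hypertrophy are induced in the mouse heart by placental growth factor (PlGF), and when hypertrophy is blocked by adding RGS4, a regulator of G protein signaling. RNA of the left ventricle was hybridised to 8 Affymetrix mouse gene arrays, 1 array for each heart. All mice were of strain C57/Bl6 and 11 weeks old. Transgenes were of the TET-OFF kind, driven by the transactivator tTA under the cardiomyocyte promoter αMHC, were held silent by dietary doxycycline, and were switched on at 5 weeks of age for 6 weeks. The 3 control mice were littermates that carried a single transgene, and which one is not given. The 2 PlGF mice expressed PlGF in the heart, and the 3 mice labelled PlGF/RGS4 expressed both PlGF and RGS4 by their label. The arrays are called biological replicates in the labels.

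Cytotoxic lymphocytes kill a target cell by releasing granules that hold perforin, which opens pores in membranes, and granzymes, serine proteases that enter the target and start its death. CD8 T cells find their target through the T cell receptor with CD8 as its partner at class I molecules, whereas natural killer cells weigh activating receptors such as NKG2D against inhibitory ones such as CD94 paired with NKG2A. Both kinds of cell are rare in the normal heart and enter it in infection, transplant rejection and inflammation.

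Promoter windows were taken from RefSeq (mouse build GRCm38.p6) and run from 250 bases before to 50 bases after each start site. They matched 7 of the 10 genes; Klrd1, Cd8b1 and Ctsw had none. The windows of Nkg7, Gzmb and Prf1 are shown because these are the 2 genes with the largest difference between PlGF and control hearts and the gene of perforin itself. Capitals mark matches on either strand to 5 short motifs, the T-box core GGTGTGA, the Runx core TGTGGT, the ETS core CAGGAAGT, the STAT motif TTCNNNGAA and the CRE motif TGACGTCA.
Nkg7 (chr7:43436888-43437187, plus strand): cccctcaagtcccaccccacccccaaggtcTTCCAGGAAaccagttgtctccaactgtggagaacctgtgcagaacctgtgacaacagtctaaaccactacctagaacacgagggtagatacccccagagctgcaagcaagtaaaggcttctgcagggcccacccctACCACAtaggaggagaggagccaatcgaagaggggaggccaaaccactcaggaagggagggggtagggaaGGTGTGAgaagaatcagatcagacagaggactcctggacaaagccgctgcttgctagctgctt
Gzmb (chr14:56262285-56262584, minus strand): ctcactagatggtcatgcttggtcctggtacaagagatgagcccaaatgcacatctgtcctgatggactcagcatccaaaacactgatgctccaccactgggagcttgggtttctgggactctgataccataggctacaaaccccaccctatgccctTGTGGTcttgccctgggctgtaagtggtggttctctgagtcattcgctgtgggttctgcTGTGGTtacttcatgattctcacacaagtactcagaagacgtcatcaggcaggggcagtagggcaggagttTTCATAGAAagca
Prf1 (chr10:61297586-61297885, plus strand): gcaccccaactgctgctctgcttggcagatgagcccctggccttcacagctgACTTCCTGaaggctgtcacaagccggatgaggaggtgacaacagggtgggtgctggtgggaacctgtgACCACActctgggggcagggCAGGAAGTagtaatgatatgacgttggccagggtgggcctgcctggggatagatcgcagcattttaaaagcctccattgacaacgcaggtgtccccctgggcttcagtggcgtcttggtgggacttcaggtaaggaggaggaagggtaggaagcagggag
The Nkg7 window held the STAT motif at base −220 from the start site, the Runx core at −83 and the T-box core at −13. The Gzmb window held the Runx core at −93 and −34 and the STAT motif at 38 bases past the start, and the Prf1 window held the ETS core at −198 and −110 and the Runx core at −130. No matches overlapped one another in these windows. The Runx core was found in 5 of the 7 windows, and in 16.8% of 32851 mouse promoter windows of this length. The T-box core was found in 2 of the 7, Gzmk and Nkg7, and in 3.98% of all windows. For the STAT motif the count was 2 of the 7 against 8.3% of all windows, for the ETS core 1 of the 7 against 3.33%, and for the CRE motif 0 of the 7 against 1.79%. A match describes letters in the window and does not show that a factor binds there.

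The arrays were checked before the results. Pgf, the gene of PlGF, read 211.1, 348.9 and 387.1 intensity units in control ventricles, 4136.3 and 916.6 with PlGF, and 300.0, 229.0 and 210.8 under the label PlGF/RGS4. Rgs4 read 209.5, 277.1 and 281.5 in control ventricles and 233.7, 186.9 and 229.3 under the label PlGF/RGS4. Both genes thus go against the label of the third group, which is called by its label throughout. PlGF replicate 1 stood apart, with a mean correlation of 0.974 with the arrays of the other groups, whereas for the other 7 arrays it lay between 0.991 and 0.993. By their Xist reading, control replicate 2, PlGF replicate 1 and PlGF/RGS4 replicate 2 came from males and the other 5 arrays from females. Sex and replicate number therefore cannot be told apart within PlGF. The labelled tissue was borne out by 8 cardiomyocyte markers, whose summed intensity lay between 89890 and 107124 in all arrays.

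All 10 cytotoxic genes read higher in both PlGF hearts than in any of the 3 control hearts, and higher than in any of the other 6 hearts. Over all 19933 genes, 14.3% had both PlGF arrays above all 3 control arrays and 9.54% had them above all 6 others. Nothing is read from the members' count here, because the genes were chosen with these values known. The median of their log2 differences from control was 1.68, whereas the median over all genes was −0.03. Differences are of log2(intensity + 1), where the added 1 lowers the change of dim genes a little. Dim readings, set beside odorant receptor genes below, can understate a change further. In whole ventricle RNA, more cells of a type and more RNA per cell cannot be told apart.

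**Figure D1:**
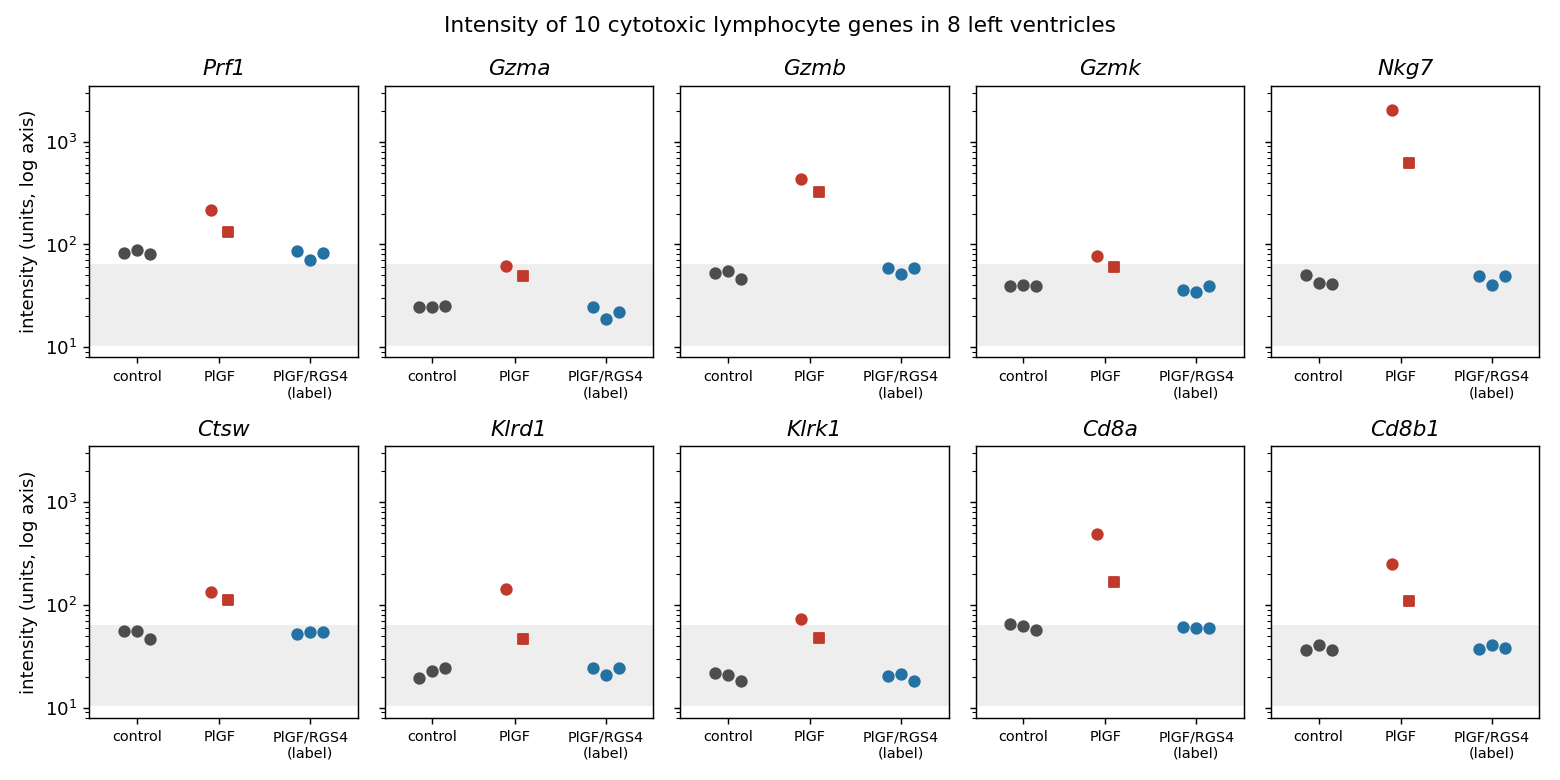
Intensity (log axis) of each of the 10 cytotoxic genes in the 8 hearts, 1 point per array, with PlGF replicate 1 as a circle and replicate 2 as a square; the grey band spans the 5th to 95th percentile of 1015 odorant receptor genes on the arrays (10.6 to 62.6 units at its widest). Both PlGF arrays lie above the other 6 in every panel, and the control arrays and those labelled PlGF/RGS4 lie mostly within the band.

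Perforin and the granzymes were higher in PlGF hearts by very different amounts. Prf1 read 82.6, 87.7 and 80.4 units in control ventricles, 216.0 and 132.6 with PlGF, and 85.9, 70.6 and 82.2 under the label PlGF/RGS4. Both PlGF hearts lay above the rest, at 2.58 and 1.59 times the control mean, and the control hearts and the hearts labelled PlGF/RGS4 overlapped. The log2 difference of PlGF from control was 1.01 ± 0.19 (SE). Gzmb, the granzyme that cleaves caspases and their substrates after aspartate, read 52.3, 54.6 and 46.6 in control ventricles, 438.6 and 324.1 with PlGF, and 59.4, 51.6 and 58.5 under the label PlGF/RGS4. Its 2 PlGF readings were 8.57 and 6.33 times the control mean and were close to each other, a factor of 1.35 apart. The log2 difference was 2.86 ± 0.13.

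Gzma, the tryptase among the granzymes, read 24.6, 24.6 and 25.1 in control ventricles, 61.8 and 49.5 with PlGF, and 24.6, 18.8 and 21.8 under the label PlGF/RGS4. Gzmk, a second tryptase, read 39.0, 40.1 and 39.5 in control ventricles, 77.0 and 60 with PlGF, and 36.4, 34.3 and 39.0 under the label PlGF/RGS4. The control hearts differed little from one another in either gene, with SDs of 0.289 and 0.551 units, and neither gene's PlGF readings overlapped theirs. The log2 difference was 1.13 ± 0.12 for Gzma and 0.77 ± 0.10 for Gzmk, the smallest among the 10 genes. Gzma and Gzmk are neighbours on their chromosome in the RefSeq annotation, with no other protein-coding gene between them.

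Gzmb in turn lies next to Gzmc, in a cluster of related granzyme genes. The readings of these relatives did not show the pattern of Gzmb. Gzmc read 16.2, 19.9 and 18.1 in control and 18.1 and 18.3 in PlGF, and the log2 differences of Gzmc, Gzmd, Gzme, Gzmf, Gzmg and Gzmn lay between −0.13 and 0.03, with none passing the test (limma adjusted over all genes). They read at most 39.6 units on any array, under the 95th percentile of the odorant receptor genes, 55.3 to 62.6 units. At such readings it cannot be told whether they were expressed in any group. These genes were singled out after their values were seen, because they share sequence with Gzmb.

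The remaining granule genes were Nkg7, a membrane protein of cytotoxic granules needed for their release, and Ctsw, a cysteine protease made by cytotoxic lymphocytes. Nkg7 read 50.9, 42.2 and 41.4 in control ventricles, 2058.7 and 618.2 with PlGF, and 49.8, 40.3 and 49.8 under the label PlGF/RGS4. It had the largest difference of the 10 genes, 45.9 and 13.8 times the control mean in the 2 hearts, or 4.63 ± 0.43 in log2. It also had the widest gap between the PlGF hearts, a factor of 3.33. Ctsw read 55.5, 55.5 and 47.0 in control ventricles, 132.6 and 110.8 with PlGF, and 52.3, 55.1 and 54.1 under the label PlGF/RGS4. Its PlGF readings were 2.52 and 2.10 times the control mean and only a factor of 1.2 apart, the narrowest gap among the 10, and its log2 difference was 1.19 ± 0.10.

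The receptor genes Klrd1 and Klrk1 encode CD94, the partner of the NKG2 proteins that bind class I ligands, and NKG2D, an activating receptor for stress-induced ligands of natural killer and CD8 T cells. Klrd1 read 19.3, 22.7 and 24.3 in control ventricles, 144.0 and 46.6 with PlGF, and 24.2, 20.9 and 24.2 under the label PlGF/RGS4. Klrk1 read 21.9, 20.8 and 18.3 in control ventricles, 73.3 and 48.2 with PlGF, and 20.3, 21.4 and 18.1 under the label PlGF/RGS4. Both were higher in the PlGF hearts without overlap, but Klrd1 rested far more on 1 heart. PlGF replicate 1 exceeded replicate 2 by a factor of 3.09 in Klrd1 and of 1.52 in Klrk1. The log2 differences were 1.85 ± 0.39 and 1.51 ± 0.17. These genes too are neighbours in the annotation, within the natural killer gene complex. Klre1, on the other side of Klrd1, differed by 0.13 (limma adjusted p = 0.288) and did not pass the test. It read at most 19.2 units on any array, in the range of the odorant receptor genes.

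Cd8a and Cd8b1 encode the 2 chains of CD8, the coreceptor of class I restricted T cells, and lie next to each other. Cd8a read 64.9, 61.9 and 57.5 in control ventricles, 492.8 and 167.1 with PlGF, and 61.1, 60.1 and 59.4 under the label PlGF/RGS4. Cd8b1 read 36.6, 40.5 and 36.5 in control ventricles, 250.5 and 108.4 with PlGF, and 37.2, 40.4 and 38.5 under the label PlGF/RGS4. The chains had similar differences, 2.21 ± 0.37 for Cd8a and 2.10 ± 0.29 for Cd8b1, and in both the first PlGF heart was well above the second, by factors of 2.95 and 2.31.

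**Figure D2:**
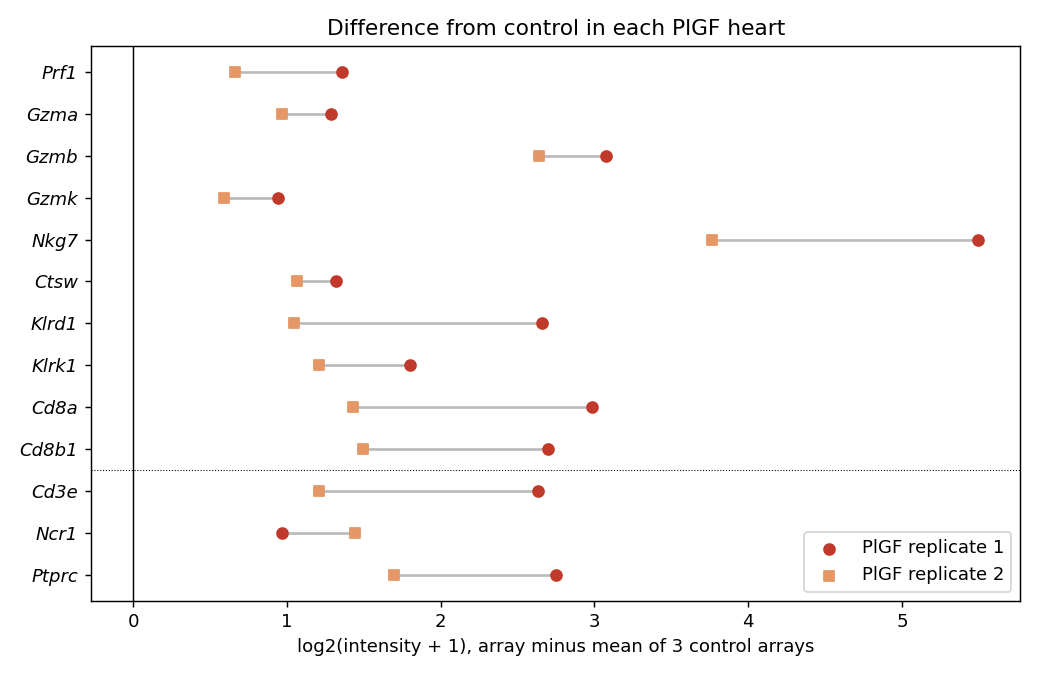
Log2 difference of each PlGF heart from the mean of the 3 control hearts, for the 10 cytotoxic genes (above the dotted line) and for Cd3e, Ncr1 and Ptprc (below it); circles are PlGF replicate 1 and squares replicate 2. Replicate 1 lies to the right of replicate 2 for all 10 genes, from 0.94 against 0.59 for Gzmk to 5.50 against 3.76 for Nkg7, whereas for Ncr1 replicate 2 lies to the right.

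The 2 PlGF hearts differed in the same direction across the set. The median log2 difference of the 10 genes from the control mean was 2.23 in PlGF replicate 1 and 1.14 in replicate 2, against −0.07 to 0.04 in the control hearts and −0.05 to 0.00 in the hearts labelled PlGF/RGS4. Replicate 1 was above replicate 2 in 10 of 10 genes. Of all genes 42.9% were higher in replicate 1, but among the 1902 genes whose PlGF arrays both lay above all others the share was 90.9%, so this direction was shared by most genes with the members' pattern. Other readings moved along with it. Pgf was 4.51 times as high in replicate 1 as in replicate 2, and the median of 8 cardiomyocyte markers was −0.21 in replicate 1 and 0.00 in replicate 2. The part of these in the members' difference between the hearts was not tested.

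The sizes were also taken within each sex. Their direction is fixed by the lack of overlap above, and the values are those that chose the genes, so they describe size alone. Against the male control heart the male PlGF heart, replicate 1, was higher in all 10 genes, by 0.92 (Gzmk) to 5.58 (Nkg7) in log2. Against the 2 female control hearts the female PlGF heart, replicate 2, was higher in all 10, by 0.60 (Gzmk) to 3.72 (Nkg7). Gzmb followed in both, at 2.98 in males and 2.69 in females, and Cd8a differed by 2.97 and 1.44.

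The differences were also set beside that of Ptprc, the gene of the leukocyte antigen CD45. Ptprc read 147.5, 156.6 and 162.0 in control ventricles, 1051.0 and 505.5 with PlGF, and 127.8, 164.4 and 132.8 under the label PlGF/RGS4. The log2 difference of Nkg7 exceeded that of Ptprc by 2.74 and 2.07 in the PlGF hearts, and that of Gzmb exceeded it by 0.33 and 0.95. Cd8a and Cd8b1 were near it, at 0.23 and −0.27 for Cd8a and −0.06 and −0.20 for Cd8b1. Prf1, at −1.39 and −1.04, and Gzmk, at −1.81 and −1.11, had smaller differences than Ptprc in both hearts. So had Gzma, Ctsw, Klrk1 and Klrd1, with Klrd1 at −0.10 and −0.65. These are gaps between differences and not between levels. Gzmk, Gzma, Ctsw, Klrk1 and Klrd1 lay at or under the 95th percentile of the odorant receptor genes on all 3 control arrays. Their differences may therefore be understated.

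How far the readings outside PlGF rest on signal from the gene itself is limited. On each array the 95th percentile of 1015 odorant receptor genes, which the heart is not known to use widely, was between 55.3 and 62.6 units. In the control hearts 8 of the 10 genes lay at or under that percentile on all 3 arrays, Cd8a on 2 of the 3 and Prf1 on none. In PlGF replicate 1 all 10 genes lay above it, in replicate 2 there were 6, and on each of the other arrays 1 or 2. The genes under it in PlGF replicate 2 were Gzma, Gzmk, Klrd1 and Klrk1. The base of a fold over control thus lay in the range of the odorant receptor genes for every member but Prf1 and, on 1 array, Cd8a. This includes the large folds of Nkg7 and Gzmb.

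In the arrays labelled PlGF/RGS4 the cytotoxic genes read as in control. The genes are not known to have been chosen by this comparison, which shares its control arrays with the one that chose them. None of the 10 passed the test (limma adjusted p = 0.995 for Gzma and 0.998 for the other 9), and 0 had an unadjusted p under 0.05. Over all genes 0.0151% passed, in either direction. The median of their log2 differences was 0.00, as was the median over all genes. No gene of the 10 had all 3 arrays above or all 3 below the control arrays, which held for 6.96% and 5.85% of all genes.

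The largest departures were −0.19 for Gzma and 0.14 for Gzmb. With the spread taken from all 8 arrays the 95% intervals ran from −0.45 to 0.07 for Gzma, from −0.14 to 0.42 for Gzmb, and from −0.84 to 0.95 for Nkg7. The spread between the PlGF hearts enters that fit. With the 6 arrays of these groups alone the interval of Nkg7 was −0.22 to 0.33, that of Cd8a −0.15 to 0.10 and that of Klrd1 −0.17 to 0.30. Taken over the 10 genes, the intervals of that fit reached from 0.752-fold (Gzma) to 1.26-fold (Gzmb) of control. The lowest adjusted p of any of the genes under any setting tried was 0.611, in limma. At these dim readings a difference in the gene's own signal would be understated.

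**Figure D3:**
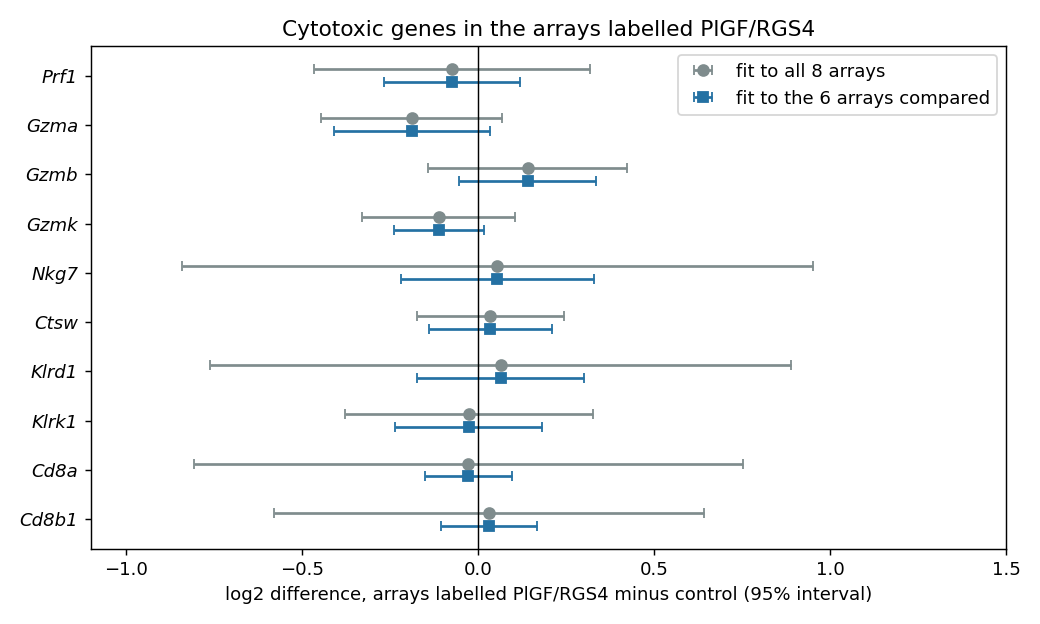
Log2 difference of the arrays labelled PlGF/RGS4 from control for the 10 cytotoxic genes, with 95% intervals, from the limma fit to all 8 arrays (grey circles) and to the 6 arrays of these groups (blue squares). All 20 intervals include 0, and those of the fit to 6 arrays lie between −0.41 and 0.33.

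A list of 96 other genes of killer and T cells, of which 79 were measured, was tested gene by gene. It was made with earlier results of these same arrays known, so its counts describe the list and give no independent support. In PlGF against control 29 were higher and 2 lower, whereas 1.79% of all genes were higher and 0.748% lower. Their median log2 difference was 0.52. In PlGF against the arrays labelled PlGF/RGS4 24 were higher and 1 lower, against 1.1% and 0.0853% of all genes, with a median of 0.55. In the arrays labelled PlGF/RGS4 against control none passed in either direction, with a median of −0.02. The count in PlGF depended on single arrays. It was between 2 and 9 when any control array or any array labelled PlGF/RGS4 was dropped, and 60 when PlGF replicate 2 was dropped. Without control replicate 3 only Ccl5 and Cd2 passed, and no other gene of the list passed in every fit with 1 of the 8 arrays dropped. When PlGF replicate 1 was dropped, 28 passed, 22 of them among the 31, but that fit holds a lone PlGF array, assumed to vary like the other groups.

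Of the granule partners few passed the test, and of all genes 1.79% were higher and 0.748% lower. Among 12 further granule proteases and cargo genes 1 was higher, Srgn, the proteoglycan core that packs granule proteases, by 0.58 ± 0.09 (limma adjusted p = 0.0263). The single lower gene was Gzmm, a granzyme of natural killer cells, which read 169.7, 157.1 and 160.9 in control ventricles, 110.0 and 120.2 with PlGF, and 151.5, 143.6 and 148.2 under the label PlGF/RGS4. Its difference of −0.50 ± 0.06 (limma adjusted p = 0.0178) was opposite in sign to those of Gzma, Gzmb and Gzmk. Cst7, an inhibitor of granule cathepsins, and Ctsc, the protease that activates granzymes, had larger differences than Srgn, 1.31 ± 0.40 and 0.97 ± 0.22, with both PlGF hearts above all others, but did not pass. None of the 6 genes of granule release passed, which says little beside such shares over all genes. Among them were Stxbp2 at 0.52 ± 0.12 and Stx11 at 0.49 ± 0.20, again with both PlGF hearts above all others. These 4 genes were named after their values were seen. Of 3 measured granzyme inhibitors Serpinb9, which protects cells from granzyme B, was higher by 0.96 ± 0.17 (limma adjusted p = 0.0406), and Serpinb6b was lower by −0.50 ± 0.07 (limma adjusted p = 0.0247).

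Of 19 further natural killer receptors 7 were higher and 0 lower. The largest was Slamf7, a self-binding receptor of cytotoxic cells and plasma cells, which read 38.1, 41.4 and 40.1 in control ventricles, 574.3 and 179.4 with PlGF, and 40.0, 40.0 and 36.8 under the label PlGF/RGS4, a difference of 2.98 ± 0.40 (limma adjusted p = 0.0207). It was followed by Klrb1b at 1.48, Klri1 at 1.43 and Cd226, the adhesion receptor DNAM-1, at 1.42. Klrc1, the NKG2A partner of CD94, named here after its values were seen, read 21.7, 22.4 and 23.9 in control and 111.3 and 38.9 in PlGF, and did not pass (limma adjusted p = 0.0731). Its readings followed those of Klrd1, with replicate 1 2.86 times replicate 2.

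The adaptors of NKG2D differed from each other. Tyrobp, the adaptor DAP12 that myeloid cells carry too, was higher by 1.39 ± 0.22 (limma adjusted p = 0.0299) and was the only one of 6 adaptors to pass. Hcst, the adaptor DAP10, read 90.8, 90.8 and 86.8 in control and 90.8 in both PlGF hearts (limma adjusted p = 0.811). Among the ligands 3 had a probe set with 1 symbol. Raet1d and H60b, ligands of NKG2D, differed by 0.10 and 0.08 and did not pass. They read at most 26.1 units on any array, in the range of the odorant receptor genes, so this does not show that they were unchanged. B2m, the light chain of class I molecules, was higher by 0.73 ± 0.07 (limma adjusted p = 0.0076). H2-T23, whose product is read by CD94 with NKG2A, was not among the genes measured with 1 symbol.

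Of 7 death ligands and cytokines 4 were higher, the chemokines Ccl3 (4.32 ± 0.66), Ccl5 (3.94 ± 0.28) and Xcl1 (2.25 ± 0.25) and the death ligand Tnfsf10 (1.45 ± 0.23). Ccl3 rested unevenly on the PlGF hearts, with 2764.8 and 500.0 units against 49.3 to 72.6 in control. Its difference was 3.09 without PlGF replicate 1 and 5.55 without replicate 2, and it did not pass without control replicate 3 (limma adjusted p = 0.112). Ccl5 read 146.3, 148.5 and 145.1 in control ventricles, 3376.6 and 1525.2 with PlGF, and 151.5, 128.9 and 154.2 under the label PlGF/RGS4, and its limma adjusted p of 0.00309 stayed at or below 0.0335 with any array left out. Of 7 transcription factors 3 were higher, Id2 (1.28 ± 0.20), Tbx21 (0.82 ± 0.10), the T-box factor of type 1 effector lymphocytes, and Zeb2 (0.51 ± 0.10). Eomes, the relative of Tbx21 in natural killer and memory CD8 cells, differed by 0.52 ± 0.17 and did not pass (limma adjusted p = 0.129). In 6 of the 7 both PlGF hearts lay above all control hearts, as in 14.3% of all genes, but the list was made with earlier results known. Hopx went the other way, with 625.8 and 1255.7 units in PlGF against 1814.4 to 1908.6 in control. Its difference of −1.06 ± 0.26 did not pass (limma adjusted p = 0.0765), and it was named after its values were seen. Hopx was also the brightest of the 7 in control ventricles, where Zeb2 read 524.1 to 604.6 and Tbx21 71 to 75.6. Of 8 cardiomyocyte markers 2 were lower and 0 higher in PlGF at an unadjusted limma p under 0.05. Which cells the Hopx reading came from was not tested, so its fall is not read as one in killer cells.

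**Figure D4:**
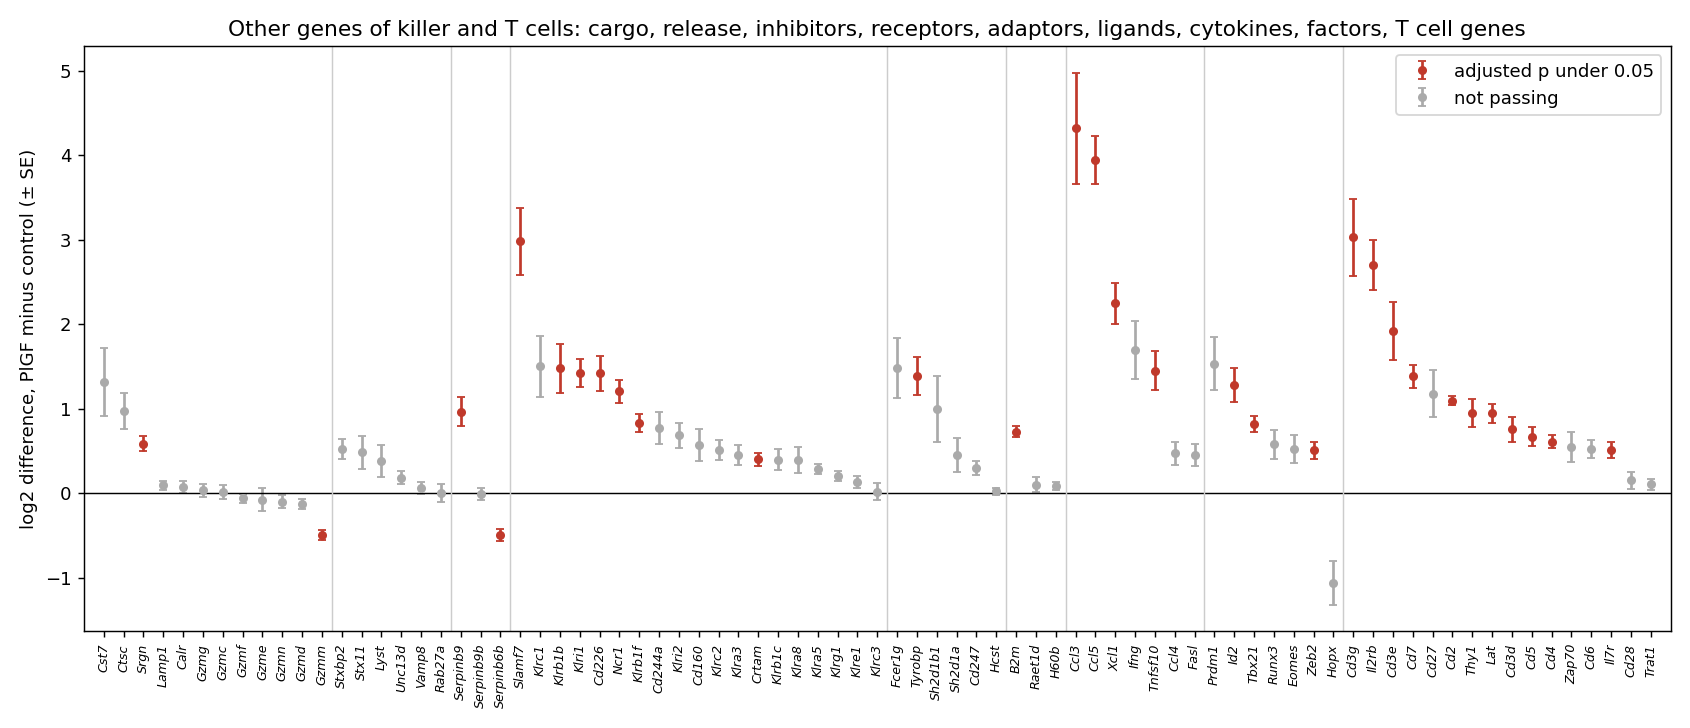
Log2 difference between PlGF and control (± SE, limma) of the 79 other killer and T cell genes, ordered within each list, with vertical lines between the lists; red marks an adjusted p under 0.05 over all 19933 genes. The red points are 29 above and 2 below 0, from Gzmm and Serpinb6b at −0.50 to Ccl3 at 4.32.

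The markers of the lymphocyte types were compared, since the 10 genes are shared between them. Of 16 T cell genes 11 were higher and 0 lower. Cd3g read 29.6, 28.8 and 29.6 in control ventricles, 478.2 and 127.1 with PlGF, and 25.6, 24.7 and 24.5 under the label PlGF/RGS4, a difference of 3.03 ± 0.45 (limma adjusted p = 0.0256). Il2rb, the IL-2 and IL-15 receptor chain of both T and natural killer cells, differed by 2.71 ± 0.30, Cd3e by 1.92 ± 0.34 and Cd7 by 1.38 ± 0.14. Cd4 was also higher, by 0.61 ± 0.08 (limma adjusted p = 0.0207), with 118.7 and 105.6 in PlGF against 67.6 to 78.0 in control. Cd2, named after its values were seen, read 112.4 and 114.1 in the 2 PlGF hearts against 49.9 to 54.5 in control, and so did not share the gap between those hearts.

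Of the genes set as markers of natural killer cells, some of which T cells can carry too, Ncr1, the receptor NKp46, was higher by 1.21 ± 0.14 (limma adjusted p = 0.0152). It read 24.0, 26.1 and 25.7 in control ventricles, 50.4 and 70.3 with PlGF, and 24.9, 21.0 and 23 under the label PlGF/RGS4, so that replicate 2 was above replicate 1, unlike in the 10 genes. Klrb1c, the NK1.1 antigen, differed by 0.40 ± 0.12 (limma adjusted p = 0.116), and Klra8 by 0.39 with 16.4 and 25.5 units in the PlGF hearts (limma adjusted p = 0.186). Klre1 and Eomes, given above, did not pass either. These are a few genes out of the lists, in which 7 of 19 natural killer receptors and 11 of 16 T cell genes passed, and whether the lists differed was not tested.

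Markers of other cells were read in the same hearts, and whether their differences were smaller than those of the members was not tested. The summed intensity of the members was 417 to 451 in control, 1666 to 3945 in PlGF and 414 to 451 in the arrays labelled PlGF/RGS4. For 8 macrophage markers it was 3840 to 4153, 5521 to 8705 and 3370 to 4539, with 1 of 8 higher in PlGF, Lyz2. For 7 dendritic cell markers it was 438 to 477, 660 to 1344 and 428 to 467, with 2 of 7 higher, Itgax by 2.04 and Flt3 by 0.51. Large differences also missed the threshold, as in Adgre1 at 1.40 ± 0.37 (limma adjusted p = 0.086), named after its values were seen. At an unadjusted limma p under 0.05, 4 macrophage markers were higher and 1 lower, and 4 dendritic cell markers higher and 0 lower. Of all 19933 genes 2170 were higher and 2338 lower at that p. Of 6 B cell markers 0 passed, with sums of 320 to 328, 342 to 363 and 295 to 336, and of 7 neutrophil and 6 mast cell markers 0 passed too. Over all genes 1.79% were higher and 0.748% lower, so 0 out of so few genes says little about these cells. Of 7 genes of all leukocytes 6 were higher, and their median log2 difference of 1.74 was near the 1.68 of the members. The part of the other cells in the members' readings was not tested.

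**Figure D5:**
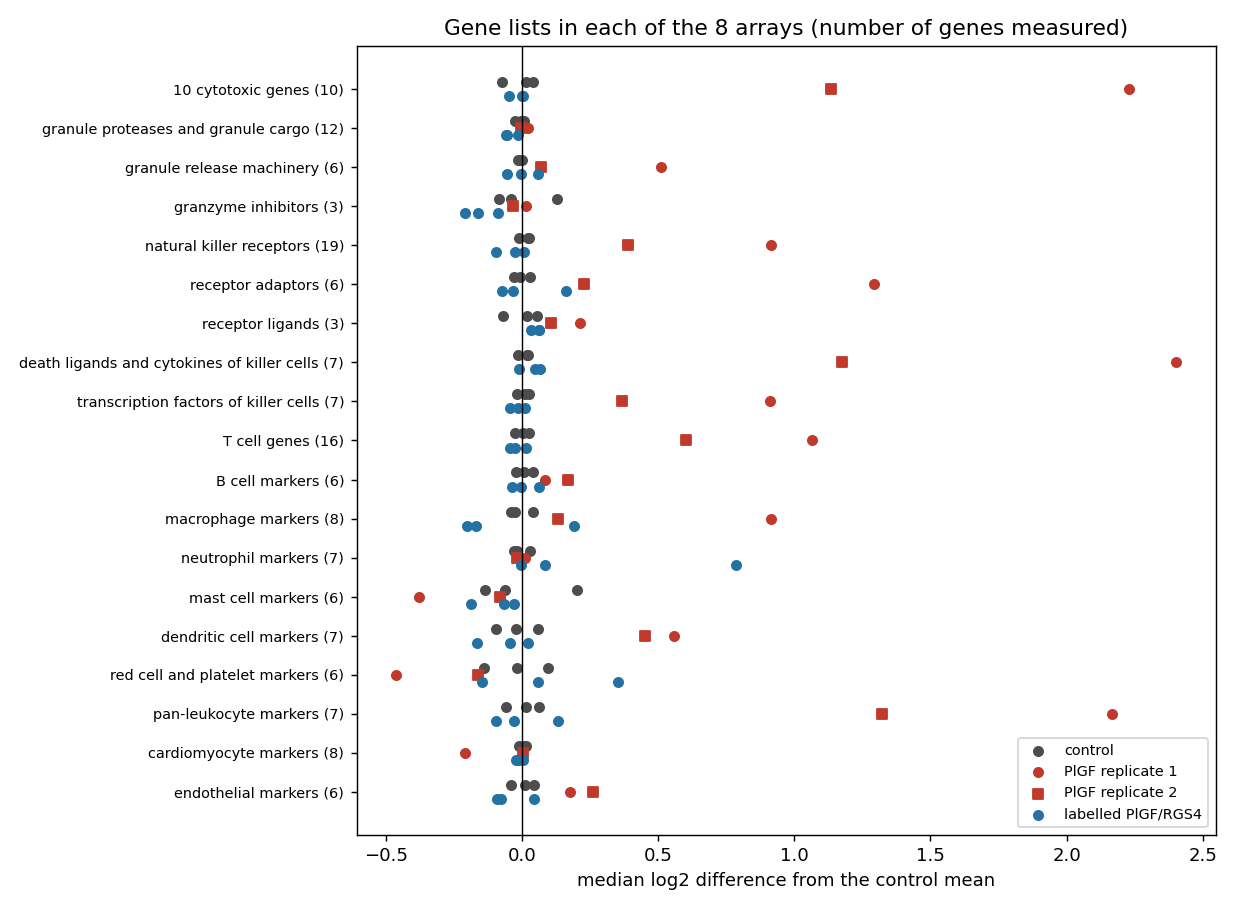
Median log2 difference from the control mean for each gene list in each of the 8 arrays; the number of genes measured is in brackets after the list's name. The 10 cytotoxic genes stand at 2.23 and 1.14 in the PlGF arrays, the pan-leukocyte markers at 2.17 and 1.32, and the B cell markers at 0.09 and 0.17.

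The 10 genes followed one another closely over the 8 arrays. Pearson's r between pairs of them was 0.92 at the lowest and 0.97 at the median over 45 pairs. It rests on the 2 PlGF arrays against 6 alike. The genes were chosen for high readings in PlGF hearts, which largely fixes such an r, so nothing is read from it. With the per-array median of the 10, Cd8a correlated at 0.999 and Gzma, the lowest, at 0.955. In this r Gzma ranked 543 and Gzmb 450 among all genes, so many genes outside the set followed the median more closely. The 8 genes outside the set with the highest r were Ptprcap, Psme2, Klra2, Ptpn22, Slamf7, Tnfrsf14, Gbp2b and Rnf213, with r between 0.997 and 0.999. Klra2, a lectin-like receptor of the Ly49 family, read 14.8, 14.8 and 12.8 in control ventricles, 227.8 and 52.8 with PlGF, and 14.3, 13.5 and 12.6 under the label PlGF/RGS4. Its log2 difference of PlGF from control was 2.88 ± 0.50. Ptprcap, a membrane protein bound to CD45, had the highest r with a difference of 0.61 ± 0.10. All these points share the same 8 arrays and their scaling.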

How the data were processed

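Left ventricular RNA was hybridised to Affymetrix Mouse Gene arrays, 8 in all. The deposited intensity values are linear, 1 per probe set, and the paper's methods name MAS 5.0 with global scaling for them. The sorted values of all arrays are however nearly the same, deviating in log2 by 0.0055 to 0.0327 on average. Values look so after quantile normalization, which the methods do not name, and which step was used is not settled here. The genome build is not given in the sources used here. All 8 columns were used and 0 left out. Of 28440 probe sets, 21780 carry 1 symbol; 1618 with several and 5042 with none were left out, and the brightest per gene gave 19933 genes. Values were taken as log2(intensity + 1). One fit to 3 group means (R 4.3.3, limma 3.58.1, lmFit and eBayes) was adjusted by Benjamini-Hochberg over all genes, at a threshold of 0.05, and was tested on simulated data. SDs are between arrays, SEs are limma's, and 8 arrays limit the precision. The members and gene lists were chosen with earlier results of these data known. Named are all members, up to 4 called genes per list with the largest change, the lists' defining genes and the 8 genes most like the members. The alternatives were quantile normalization, median centring, a trend and robust prior, 2 groups alone, every probe set, a filter at the median level, the methods' t-test, the replicate number as a block, log2(intensity + 16), sex as a term and each array left out. Motifs were searched on both strands of RefSeq promoter windows.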

Additional observations from a re-analysis of the deposited data

How the results depend on the processing

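The median log2 difference of the 10 cytotoxic genes between PlGF and control, 1.68, lay between 1.14 (without PlGF replicate 1) and 2.23 (without PlGF replicate 2) with each array left out in turn, and was 1.23 with log2(intensity + 16). All 10 differences were above 0 under every alternative that gave a value. No member lay above the median level of all genes, so that filter gives none. In the arrays labelled PlGF/RGS4 the members' median lay between −0.06 and 0.02 with single arrays left out, and no member passed under any alternative. Counts of called genes moved far more. The counts for PlGF against control, the label PlGF/RGS4 against control, PlGF against that label, and other killer cell genes were 505, 3, 237 and 31. They became 0, 0, 1 and 0 with only the 2 groups compared (limma, with 3109, 1774 and 2597 genes at an unadjusted p under 0.05), and 2, 0, 2 and 0 with the methods' t-test after adjustment (1885, 1343 and 1624 unadjusted). With genes above the median level the third was 110 and the last 12, with log2(intensity + 16) the third was 138, and with sex as a term the second was 0 (limma, 1078 unadjusted). With single arrays left out they ran from 17 (without control replicate 3) to 5921 (without PlGF replicate 2), from 0 to 1, from 11 (without PlGF/RGS4 replicate 3) to 5591 (without PlGF replicate 2), and from 2 (without control replicate 2 or 3) to 60 (without PlGF replicate 2). Every array other than PlGF replicate 1 moved the first and last counts by over 1.5 times. Without either PlGF array the lone one left is assumed to vary like the other groups. Median centring called 376 genes higher and 317 lower in PlGF against control, where 356 and 149 were called before. The cause of these shifts was not tested, apart from the fewer arrays or genes that an alternative holds.

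With the replicate number as a block (replicate block) these 4 counts were 27, 0, 26 and 5, and the members' median was 1.67 in PlGF. Arrays of the same number correlated in their deviations from the group means at −0.22 to 0.30. Control and PlGF/RGS4 replicates of the same number also shared their sex by Xist, and their r was 0.08, 0.30 and 0.10. Same-number pairs with a PlGF array were of unlike sex, with r from −0.22 to −0.13. The parts of sex and of number in these r were not tested.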
